A study of Mus musculus with 24 samples.

Results

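The 35 genes described here encode the contractile apparatus of smooth muscle. They were chosen by symbol from a list of textbook components, with earlier results of these data known. Each of the 35 was listed in all 24 libraries among 24346 symbols and was tested. They comprise 10 thin filament genes, 5 genes of myosin and its phosphorylation, 11 genes of the intermediate filaments, dense bodies and adhesion plaques, 5 genes of potassium channels, calcium coupling and kinases, 2 small heat shock proteins and 2 transcription factors. The libraries are bulk RNA-seq of colorectal tissue from mice that were all given AOM/DSS (azoxymethane, a carcinogen, with dextran sulfate sodium, a polymer that injures the colon epithelium), also those whose tissue is labelled normal. The genotype label was c-MAF_KO or WT, and the titles divide the WT libraries into wild_old (here WT-old) and wild_young (WT-young) and the KO libraries into 8_homo_ko (KO-8-homo), 8_hetero_ko (KO-8-hetero) and 1_hetero_ko (KO-1-hetero). There were 3 tumors of each KO group, 4 of WT-young and 1 of WT-old, and each group had 2 normal libraries. The labels give neither the age behind "young" and "old" nor the sex, the strain, the meaning of the leading numbers 1 and 8, how the allele was made or how the tissue was cut, and they do not say that libraries of a group came from separate mice, so p-values measure only the spread between these libraries.

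Smooth muscle of the colon forms the 2 layers of the muscularis externa, the thin muscularis mucosae under the epithelium and the walls of blood vessels. Calcium entering the cell activates myosin light chain kinase, which phosphorylates the regulatory light chain and lets smooth muscle myosin pull on actin filaments that are anchored in dense bodies and adhesion plaques. The transcription factor SRF, with its cofactor myocardin, switches many of these genes on by binding a short DNA element called the CArG box. Myofibroblasts and pericytes share several of the genes, above all Acta2, so that no single symbol marks smooth muscle alone.

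The element through which SRF acts is shown first, because Srf and Myocd are themselves members of the set. A CArG box was taken as CC, then 6 bases that are each A or T, then GG, which reads the same way on both strands. RefSeq windows on GRCm38.p6, from 250 bases before to 50 after an annotated start, existed for 31 members, and 5 of these held a box (16.1%), against 1.63% of all 32851 windows and 1.81% of the 27025 genes in the table. Actg2, Myh11, Myocd and Tagln had no window. The promoter stretches of the 5 genes follow, each read 5′ to 3′ on the strand of the gene, with the box in capitals.
Srf, chr17:46556165-46556284, minus strand: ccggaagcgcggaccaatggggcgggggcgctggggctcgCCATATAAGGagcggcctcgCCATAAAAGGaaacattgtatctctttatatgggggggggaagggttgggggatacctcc
Myl9, chr2:156775263-156775382, plus strand: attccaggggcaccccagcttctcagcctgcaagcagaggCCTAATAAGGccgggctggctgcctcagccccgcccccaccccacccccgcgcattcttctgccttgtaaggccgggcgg
Cnn2, chr10:79988504-79988599, plus strand: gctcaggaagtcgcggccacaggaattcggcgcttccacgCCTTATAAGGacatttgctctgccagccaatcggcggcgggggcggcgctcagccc
Vcl, chr14:20929148-20929267, plus strand: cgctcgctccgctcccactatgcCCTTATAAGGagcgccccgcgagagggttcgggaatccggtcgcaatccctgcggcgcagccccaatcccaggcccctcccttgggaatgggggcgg
Ldb3, chr14:34588682-34588756, minus strand: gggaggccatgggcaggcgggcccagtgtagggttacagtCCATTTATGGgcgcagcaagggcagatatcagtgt
The Srf promoter held 2 boxes, beginning 82 and 62 bases before the start, and Myl9 held 1 at 161, Cnn2 1 at 56, Vcl 1 at 227 and Ldb3 1 at 35. These matches describe the letters in the windows, and no binding was measured. The other 26 members with a window had no such run of letters in it. This says nothing of elements farther away or of runs that differ from the pattern by a base, which were not counted.

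Relative depth, read from genes below 1 FPKM, ranged from 0.697 to 1.89 of the median library, 12074 to 13290 genes reached 1 FPKM, and no counting interval was possible because fragment totals are unknown. Maf, the gene of the genotype label, was at 2.62 to 7.4 FPKM in KO tumors, 1.63 to 2.26 in WT-young tumors and 7.26 in the WT-old tumor, so it was not lower in the libraries labelled KO. KO therefore means the label throughout, and no direction can be read as an effect of less Maf transcript. Xist, transcribed from the inactive X chromosome of females, reached 1 FPKM in 6 libraries, which were both normal libraries and 1 tumor of each heterozygous KO group, so that tissue and Xist level moved together there. FPKM is a level per transcript length, so genes can be compared within a library.

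After the values were seen, 3 libraries were set apart, and they are called here those that stood apart. The WT-old tumor had the highest level of any tumor for 25 of the 35 genes and the lowest Epcam, an epithelial adhesion protein, at 418 FPKM against 596 to 1103 in the other tumors. KO-8-hetero tumor replicate 2 had the highest tumor level for 7 genes and carried transcripts of striated muscle that were low elsewhere. Its 11 striated muscle genes summed to 770 FPKM, against 3.87 to 37.1 in the other 23 libraries, with skeletal actin Acta1 at 175, creatine kinase Ckm at 99.4 and fast troponin C Tnnc2 at 163 FPKM. KO-8-hetero normal replicate 2 was the highest normal library for only 4 genes and the lowest for 3. It was set apart because its difference from its partner ranked with the GC content and length of the transcript, as described at the end. Other libraries were also extreme and were not among the 3. WT-young normal replicate 1 was the highest normal library for 23 genes and WT-old normal replicate 2 the lowest for 21. KO-1-hetero normal replicate 1 was the lowest normal library for 11, and WT-young tumor replicate 4 the lowest tumor for 17. Several results are given with and without the 3 libraries.

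**Figure D1:**
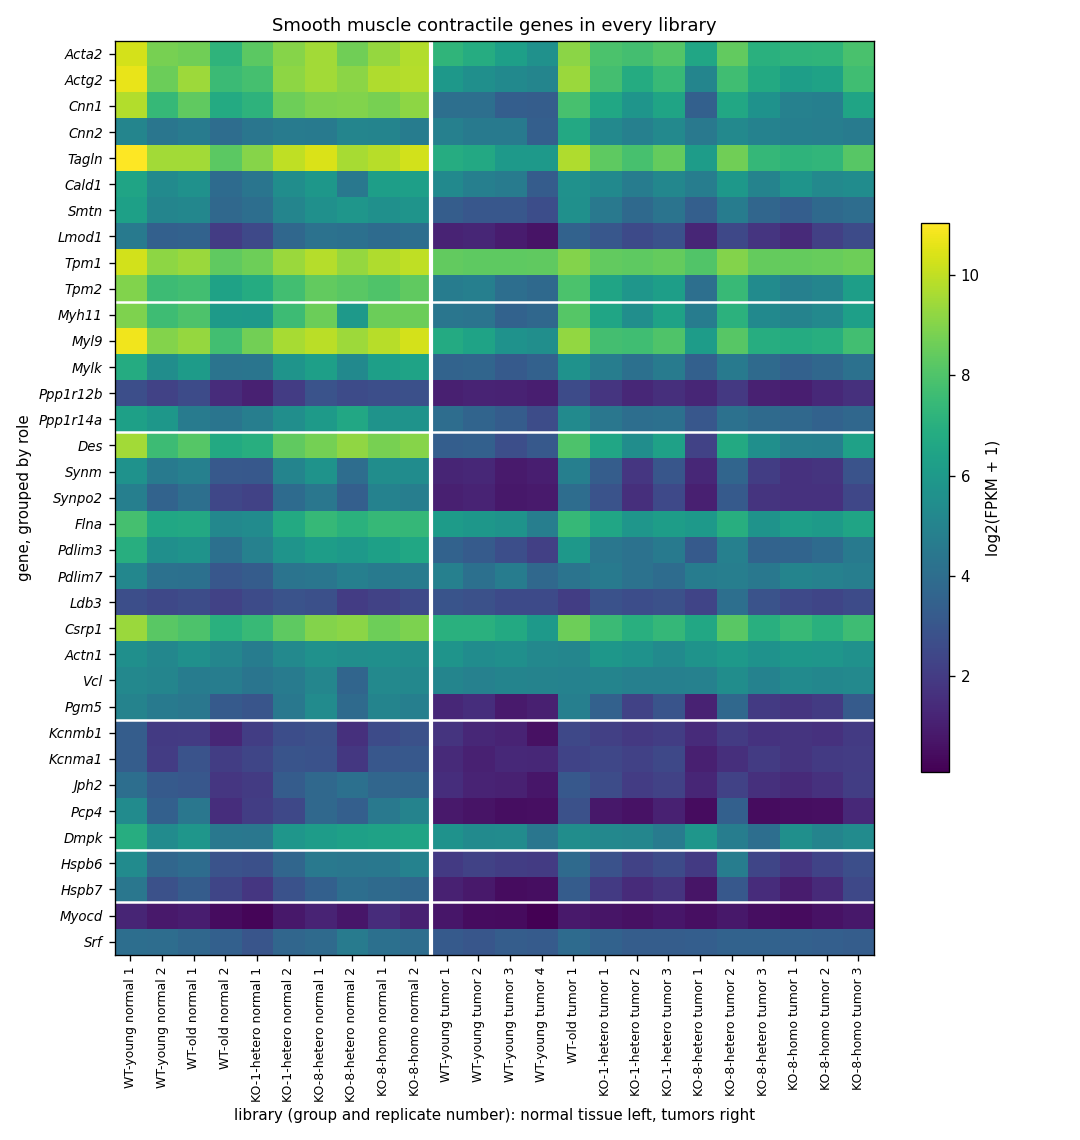
Level of each of the 35 genes as log2(FPKM + 1), by colour, in 24 libraries (columns, 10 normal on the left and 14 tumors on the right), with white lines between roles. Most genes are brighter in normal tissue than in tumors and darkest in WT-young tumors, the WT-old tumor is as bright as normal libraries, and Actn1 and Vcl differ little in colour between the tissues.

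The main contrast in the set was that of tumors with normal tissue. The members were chosen with earlier results of these data known, so their counts are not independent of these libraries. With the WT label 22 of the 35 genes fell in tumors, 0 rose and 13 did not pass, where 14.8% of the 13799 genes tested fell and 15.5% rose (limma, Benjamini-Hochberg adjusted p below 0.05). With the KO label 26 fell, 1 rose and 8 did not pass, against 23.2% of all genes lower and 24.1% higher. The median log2 fold change over the 35 genes was -1.54 (WT label) and -1.52 (KO label), and it was 0.02 over all genes tested in both. Of the 35 genes, 22 fell with both labels, 5 passed with the KO label alone and 8 with neither. The interaction of label and tissue called 0 of the 35 and 0% of all genes by limma, with 0 members and 654 genes at an unadjusted p below 0.05, so passing with the KO label alone is not a shown difference between the labels. In bulk tissue, fewer cells of a type and less RNA per cell cannot be told apart. The count with the WT label rested in part on WT-young normal replicate 1, the highest normal library for 23 genes, and was 14 without it. It was 26 without the WT-old tumor, when the median log2 fold change was -1.91. With a block for each title prefix and replicate number most calls with the WT label were lost. Des then measured -3.49 (limma adjusted p 0.0603) and Actg2 -2.63 (0.0703). The labels do not say whether replicate numbers pair the libraries.

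**Figure D2:**
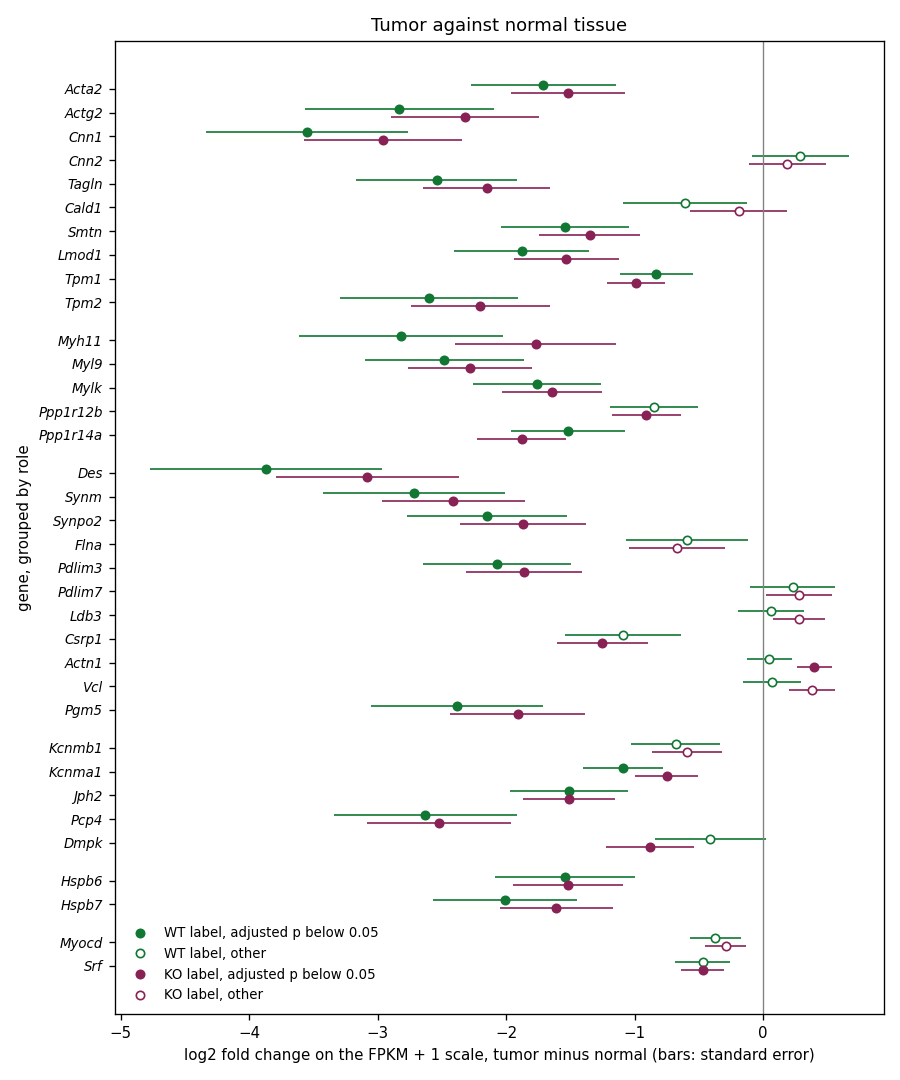
Log2 fold change on the log2(FPKM + 1) scale, tumor minus normal, with its standard error, for each of 35 genes (rows, grouped by role) with the WT label (green) and the KO label (purple). Filled points passed a limma adjusted p of 0.05. Des lies farthest to the left, at -3.87 and -3.08, while Cnn2, Pdlim7, Ldb3, Actn1 and Vcl lie at or right of 0.

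Among thin filament genes, 8 of 10 fell with each label, and Cnn2 and Cald1 passed with neither. Cnn1 encodes calponin 1, an actin-binding protein of differentiated smooth muscle that restrains myosin ATPase, and lies on chr9:22099221-22109221 (GRCm38.p6). In normal tissue it was at 873 and 172 FPKM in WT-young, 323 and 110 in WT-old, 438 and 570 in KO-8-homo, 489 and 501 in KO-8-hetero, as well as 144 and 395 FPKM in KO-1-hetero. Tumor levels were 16, 15.7, 9.24 and 8.8 FPKM in WT-young, 232 in WT-old, 29.1, 27.2 and 88.6 in KO-8-homo, 9.97, 99.2 and 49.3 in KO-8-hetero, as well as 96, 53.7 and 87 FPKM in KO-1-hetero. Every KO tumor lay below every KO normal library, and the WT-old tumor alone lay within the range of normal tissue. The log2 fold change was -3.55 (SE 0.785) with the WT label and -2.96 (SE 0.616) with the KO label, with limma adjusted p-values of 0.00199 and 0.000566.

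Actg2 encodes the gamma actin of visceral smooth muscle, on chr6:83512909-83536251, and Acta2 the alpha actin that is most abundant in vascular smooth muscle, on chr19:34240336-34255585. Actg2 was at 1631 and 384 FPKM in WT-young normal tissue, 698 and 184 in WT-old, 837 and 909 in KO-8-homo, 736 and 553 in KO-8-hetero, as well as 223 and 575 FPKM in KO-1-hetero. Its tumor levels were 58.8, 44.8, 37.8 and 32.1 FPKM in WT-young, 672 in WT-old, 73.8, 83.8 and 203 in KO-8-homo, 32.2, 201 and 106 in KO-8-hetero, as well as 219, 113 and 177 FPKM in KO-1-hetero. The lowest KO normal library, at 223 FPKM, stood just above the highest KO tumor, at 219 FPKM. Acta2 fell less than Actg2, with log2 fold changes of -1.71 (SE 0.564, limma adjusted p 0.0252) and -1.52 (SE 0.443, 0.00754) against -2.83 (SE 0.734, 0.00636) and -2.32 (SE 0.577, 0.00245) for Actg2 with the WT and the KO label.

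Acta2 was at 1269 and 437 FPKM in WT-young normal tissue, 400 and 147 in WT-old, 624 and 885 in KO-8-homo, 735 and 403 in KO-8-hetero, as well as 305 and 535 FPKM in KO-1-hetero. Tumors held 149, 116, 75.9 and 48.9 FPKM in WT-young, 555 in WT-old, 146, 151 and 235 in KO-8-homo, 94.5, 333 and 132 in KO-8-hetero, as well as 243, 216 and 276 FPKM in KO-1-hetero. Tumor and normal ranges overlapped with both labels. Its calls were lost under quantile normalization, with limma adjusted p-values of 0.0783 for the WT label and 0.0846 for the KO label, and in libraries with low Xist with the KO label (0.0588). With the WT label the call was also lost without WT-young tumor replicate 3 (0.0639) or 4 (0.0677), WT-young normal replicate 1 (0.117) or WT-old normal replicate 1 (0.0505). A block for replicate number (limma adjusted p 0.09) or for title prefix by replicate (0.141) removed the call with that label too. The coding sequences of the actins are nearly identical, and how the authors' quantification divided shared fragments between Acta2 and Actg2 is not given in the sources used here.

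Tagln encodes transgelin, an actin-bundling protein and an early marker of the lineage. It was the most abundant of these genes in WT-young normal tissue, at 2098 and 733 FPKM, and reached 739 and 306 in WT-old, 936 and 1242 in KO-8-homo, 1347 and 777 in KO-8-hetero, as well as 534 and 1019 FPKM in KO-1-hetero normal tissue. Tumors gave 115, 103, 61 and 61.5 FPKM in WT-young, 859 in WT-old, 146, 157 and 288 in KO-8-homo, 69.7, 404 and 165 in KO-8-hetero, as well as 317, 231 and 349 FPKM in KO-1-hetero. The KO tumors, up to 404 FPKM, did not overlap the KO normal libraries, which began at 534 FPKM. Tagln fell by 2.54 (SE 0.627, limma adjusted p 0.00454) on the log2 scale with the WT label and by 2.15 (adjusted p 0.00131) with the KO label.

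Of the other thin filament genes, tropomyosin 2 (Tpm2), which lies along the actin filament, fell by 2.60 on the log2 scale with the WT label and also passed with the KO label (limma adjusted p 0.0023). Lmod1, a leiomodin that nucleates actin filaments, fell by 1.88 and 1.53 with the WT and KO labels, and Smtn, smoothelin of contractile smooth muscle, fell by 1.54 and 1.35. Tpm1, whose transcripts are spliced into muscle and non-muscle forms that a gene-level value does not separate, fell by 0.83 and 0.99. Cnn2, a calponin that is also made by non-muscle cells, was at 9.49 to 102 FPKM in WT tumors and 15 to 32.3 FPKM over all normal libraries. The value of 102 FPKM belonged to the WT-old tumor, and the other 13 tumors reached at most 36.8 FPKM.

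Cald1 encodes caldesmon, which binds actin and myosin and is spliced into smooth muscle and non-muscle forms. It was at 89.4 and 39.4 FPKM in WT-young normal tissue, 48 and 14 in WT-old, 73.7 and 75.1 in KO-8-homo, 57.2 and 20.8 in KO-8-hetero, as well as 19.2 and 42.8 FPKM in KO-1-hetero. In tumors it was at 37.9, 27.4, 23.8 and 8.73 FPKM in WT-young, 48.5 in WT-old, 52.9, 36.8 and 42 in KO-8-homo, 25.3, 58.8 and 30.8 in KO-8-hetero, as well as 38.3, 24.3 and 34.4 FPKM in KO-1-hetero. Tumor and normal ranges overlapped with both labels. Its difference with the KO label was the smallest of the set, -0.19 (SE 0.38, limma adjusted p 0.698), and it was -0.61 (SE 0.483, 0.349) with the WT label.

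All 5 genes of myosin and its phosphorylation fell with the KO label and 4 of 5 with the WT label. Myh11, the smooth muscle myosin heavy chain, on chr16:14194527-14292188, was at 480 and 200 FPKM in WT-young normal tissue, 247 and 66.1 in WT-old, 382 and 378 in KO-8-homo, 381 and 62.2 in KO-8-hetero, as well as 61.8 and 191 FPKM in KO-1-hetero. Tumor levels were 20.1, 18.5, 10.6 and 12.3 FPKM in WT-young, 284 in WT-old, 30.6, 36.4 and 74.9 in KO-8-homo, 24.6, 137 and 38 in KO-8-hetero, as well as 90, 44 and 82.9 FPKM in KO-1-hetero. The WT-young tumors were the 4 lowest of all libraries, and KO tumor and normal ranges overlapped through the lower library of the KO-1-hetero and KO-8-hetero normal pairs. The log2 fold change was -2.82 (SE 0.794, limma adjusted p 0.0104) with the WT label and -1.77 (SE 0.624, 0.0233) with the KO label, and without the 3 libraries that stood apart the latter was -2.26 (SE 0.468, 0.00068). With the KO label the call was lost under quantile normalization (-1.48, adjusted p 0.0702) and, at -1.57 each, without KO-8-hetero normal replicate 1 (0.0591) or KO-8-homo normal replicate 1 (0.056) or 2 (0.057). With a block for title prefix by replicate the calls with both labels were lost (WT -2.56, limma adjusted p 0.131, and KO -1.88, 0.0768).

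Mylk encodes myosin light chain kinase, and a shorter and a longer product of the gene serve smooth muscle and other cells. It was at 112 and 42.8 FPKM in WT-young normal tissue, 66.8 and 18.5 in WT-old, 76.7 and 86.5 in KO-8-homo, 75.2 and 37.3 in KO-8-hetero, as well as 19.2 and 52.4 FPKM in KO-1-hetero. Tumors held 10.8, 11.5, 8.15 and 10.1 FPKM in WT-young, 49.3 in WT-old, 10.3, 12.2 and 16.8 in KO-8-homo, 9.96, 22.4 and 13.7 in KO-8-hetero, as well as 25.1, 16.4 and 23.6 FPKM in KO-1-hetero. WT-young tumors lay at 8.15 to 11.5 FPKM and KO-8 tumors at 9.96 to 22.4 FPKM. Besides the WT-old tumor, KO-1-hetero tumor replicates 1 and 3 and KO-8-hetero tumor replicate 2 exceeded the lower KO-1-hetero normal library, at 19.2 FPKM. Mylk fell by 1.76 (SE 0.496, limma adjusted p 0.0107) and 1.64 (SE 0.39, 0.00172) on the log2 scale with the WT and KO labels, and measured -1.37 (0.0505) with the WT label without WT-young normal replicate 1. The regulatory light chain Myl9 fell by 2.48 and 2.28. Ppp1r14a, an inhibitor of myosin phosphatase, fell by 1.52 and 1.88, and Ppp1r12b, a targeting subunit of that phosphatase, fell by 0.91 with the KO label and measured -0.85 (limma adjusted p 0.0627) with the WT label.

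The 11 genes of intermediate filaments, dense bodies and adhesion plaques were the most divided. Des, desmin, the intermediate filament of muscle, on chr1:75360292-75368579, fell more than any other member with both labels. It was at 722 and 193 FPKM in WT-young normal tissue, 284 and 105 in WT-old, 443 and 522 in KO-8-homo, 422 and 589 in KO-8-hetero, as well as 121 and 329 FPKM in KO-1-hetero. In tumors it was at 9.14, 10, 5.47 and 7.94 FPKM in WT-young, 250 in WT-old, 28.1, 26.8 and 80.9 in KO-8-homo, 3.74, 106 and 45.8 in KO-8-hetero, as well as 93, 42.2 and 79.9 FPKM in KO-1-hetero. The single lowest value, 3.74 FPKM in KO-8-hetero tumor replicate 1, stood below all WT-young tumors, and every KO tumor lay below every KO normal library. The log2 fold change was -3.87 (SE 0.905, limma adjusted p 0.00306) with the WT label and -3.08 (SE 0.711, 0.00138) with the KO label.

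The other genes of this group that fell with both labels were Synm, synemin, which joins desmin filaments to the plaque (-2.72 and -2.41), Pgm5, aciculin of adhesion plaques (-2.38 and -1.91), Synpo2, an actin-binding partner of filamin and actinin (-2.15 and -1.87), and Pdlim3, a LIM protein that binds actinin (-2.07 and -1.86). Csrp1, a LIM protein of actin bundles, fell by 1.25 with the KO label and measured -1.09 (limma adjusted p 0.0676) with the WT label. Filamin A, Flna, which cross-links actin in most cell types, measured -0.59 and -0.67 and passed with neither label, nor did Pdlim7 at 0.23 and 0.28. Vcl, vinculin of adhesion plaques and epithelial junctions, was at 28 to 42.9 FPKM in tumors and 11.6 to 36.9 in normal tissue. Its log2 fold changes were 0.07 (SE 0.229) and 0.38 (SE 0.18), with limma adjusted p-values of 0.833 and 0.0836. Actn1, the actinin of non-muscle cells and of dense bodies, was the 1 member that rose, by 0.40 (SE 0.138, limma adjusted p 0.0214) with the KO label, and without the 3 libraries that stood apart it measured 0.39 (adjusted p 0.0292). Ldb3, a Z-disc protein of striated muscle, was at 15.8 FPKM in the tumor library with striated muscle transcripts and at 3.13 to 6.58 FPKM in the other 23 libraries. Its log2 fold change with the KO label was 0.28, and 0.03 without the libraries that stood apart.

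Of the 5 genes of potassium channels, calcium coupling and kinases, 3 fell for the WT label and 4 for the KO label. Pcp4, a calmodulin-binding peptide, was at 1.87 to 40.5 FPKM in the 10 normal libraries and below 1 FPKM in 10 of the 14 tumors. The 4 tumors that reached 1 FPKM were the WT-old tumor at 6, KO-8-hetero replicate 2 at 9.89, KO-1-hetero replicate 3 at 1.1 and KO-8-homo replicate 3 at 1.5 FPKM. Pcp4 fell by 2.63 and 2.52 on the log2 scale with the WT and KO labels. Jph2, a junctophilin that holds the calcium store near the cell membrane, fell by 1.51 with each label. Kcnma1, the pore of the calcium-activated BK potassium channel, fell by 1.09 and 0.75, while its smooth muscle beta subunit Kcnmb1 passed with neither label (-0.68 and -0.59). The kinase Dmpk fell with the KO label alone (-0.88 against -0.41). The small heat shock protein Hspb6, which binds to the contractile apparatus in relaxation, fell by 1.54 and 1.52, and Hspb7 fell by 2.01 and 1.61.

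Of the 2 transcription factors 0 passed with the WT label and Srf with the KO label. Srf, which is made in most cell types, was at 15.2 and 14.9 FPKM in WT-young normal tissue, 12.5 and 10 in WT-old, 16.3 and 15 in KO-8-homo, 13.8 and 23.7 in KO-8-hetero, as well as 6.85 and 12.1 FPKM in KO-1-hetero. Tumor levels were 8.21, 7.12, 9.05 and 8.36 FPKM in WT-young, 14 in WT-old, 10.1, 9.59 and 8.95 in KO-8-homo, 9.3, 10.4 and 10.6 in KO-8-hetero, as well as 10.5, 8.82 and 9.07 FPKM in KO-1-hetero. All 14 tumors but the WT-old tumor lay within 7.12 to 10.6 FPKM, and 1 normal library, KO-1-hetero replicate 1, lay below them. The log2 fold change was -0.47 with both labels (SE 0.216 and 0.17), with a limma adjusted p of 0.0998 for the WT label and 0.0279 for the KO label. Without the 3 libraries that stood apart these became -0.61 (adjusted p 0.00981) and -0.33 (0.0611), so the label with which Srf passed changed. With the WT label it also passed under quantile normalization (-0.53, adjusted p 0.0418), in libraries with low Xist (-0.47, 0.0212) and without the WT-old libraries (-0.81, 0.033). It passed with that label as well without the WT-old tumor (-0.61, 0.0314) or KO-1-hetero normal replicate 1 (-0.47, 0.0381). With the KO label it did not pass without KO-8-hetero normal replicate 2 (-0.32, 0.0981) or KO-8-homo normal replicate 1 (-0.42, 0.0608) or 2 (-0.44, 0.0526). Nor did it pass with the KO label with a block for replicate number (-0.45, limma adjusted p 0.0625) or for title prefix by replicate (-0.46, 0.11).

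Myocd, myocardin, was near the limit of measurement. It reached 1 FPKM in 4 libraries, all normal, and passed the expression filter only through them. In normal tissue it was at 1.33 and 0.755 FPKM in WT-young, 0.951 and 0.355 in WT-old, 1.81 and 1.14 in KO-8-homo, 1.25 and 0.65 in KO-8-hetero, as well as 0.187 and 0.722 FPKM in KO-1-hetero. Tumors held 0.683, 0.351, 0.302 and 0.0568 FPKM in WT-young, 0.752 in WT-old, 0.327, 0.552 and 0.721 in KO-8-homo, 0.461, 0.741 and 0.398 in KO-8-hetero, as well as 0.632, 0.479 and 0.654 FPKM in KO-1-hetero. The ranges overlapped, and a pseudocount of 1 FPKM compresses differences at such levels. Myocd measured -0.37 (limma adjusted p 0.167) and -0.29 (0.137), and under quantile normalization it passed with both labels (-0.48, adjusted p 0.0489, and -0.47, 0.0108). Without KO-1-hetero normal replicate 1 it passed with the KO label (-0.42, adjusted p 0.0232).

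The 5 members with a CArG box in the promoters printed above did not form a common pattern. Myl9 fell by 2.48 and 2.28 on the log2 scale with the WT and KO labels, Srf fell by 0.47 with the KO label, and Cnn2, Vcl and Ldb3 passed with neither label. Des, Cnn1, Pcp4 and Synm, which fell most among the genes with a window with either label, had no exact match to the box within it.

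**Figure D3:**
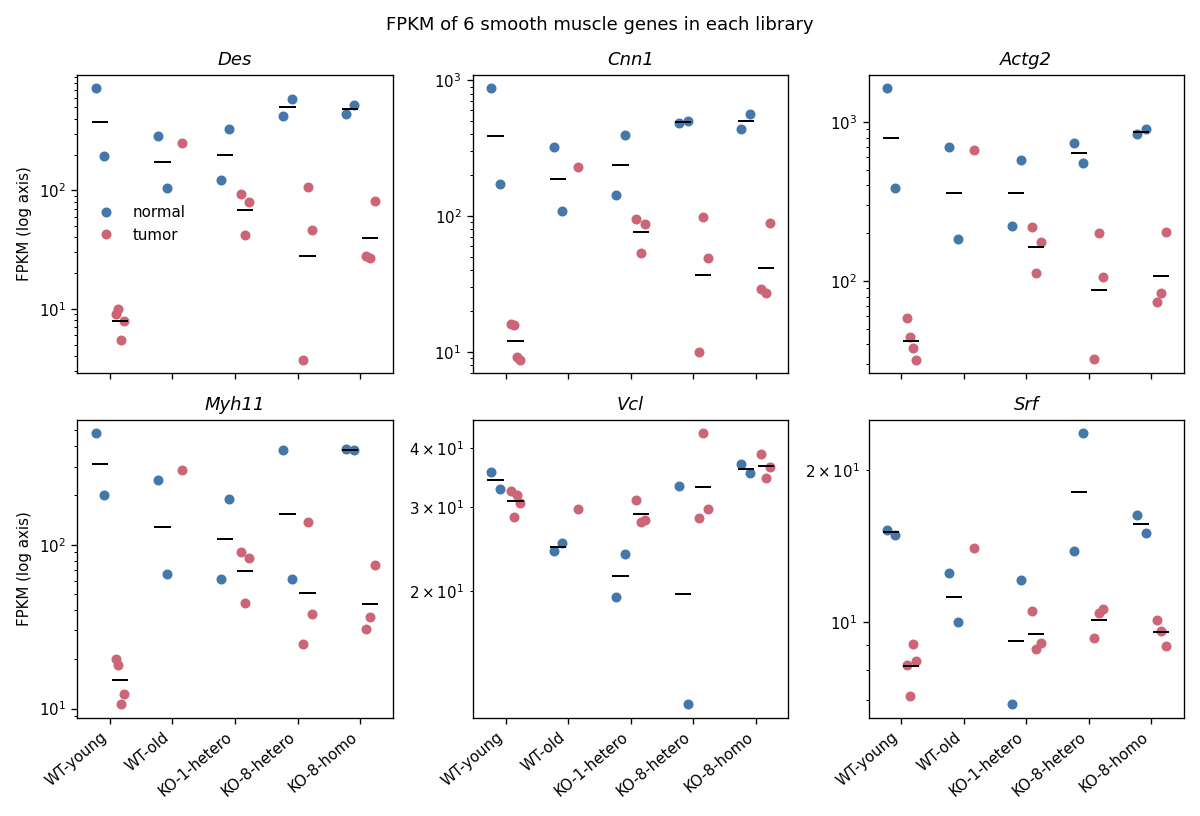
FPKM on a log axis for Des, Cnn1, Actg2, Myh11, Vcl and Srf in each library (points), normal in blue and tumor in red, by title group, with the mean of log2(FPKM + 1) of groups of at least 2 as a black bar. In the panels of the first 4 genes WT-young tumors lie low, most KO tumors lie between them and normal tissue, and KO-8-hetero tumor replicate 1 lies with or below the WT-young tumors for Des, Cnn1 and Actg2. The WT-old tumor lies among normal libraries, and Vcl shows no such order.

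The tumor-normal difference varied between title groups. In WT-young 27 of the 35 genes fell and 0 rose (12.5% of all genes fell and 13.7% rose), with a median log2 fold change of -2.65. In KO-8-homo 26 fell and 0 rose (11.2% and 11.8%), with a median of -1.96, among them Myocd (-0.68, limma adjusted p 0.0473), which had passed the filter through normal libraries only. In KO-8-hetero 22 fell and Vcl rose (21.2% and 21.9%), with a median of -1.77. In KO-1-hetero 0 passed (7.2% and 6.93%), with a median of -0.60 and 4 members at an unadjusted p below 0.05 by limma. The log2 fold change of Des was -5.38 (SE 0.878) in WT-young, -3.57 (SE 0.926) in KO-8-homo, -4.12 (SE 0.926) in KO-8-hetero and -1.54 (SE 0.926) in KO-1-hetero. With 2 normal libraries in each group the counts leaned on single libraries, and a fit without 1 of them has only the other to compare. In KO-8-homo 9 and 6 genes passed without normal replicate 1 and 2. In KO-1-hetero the median was -1.04 without normal replicate 1 and 0.0101 without normal replicate 2. There 2 genes passed without KO-8-hetero tumor replicate 1 or WT-young tumor replicate 4, and 1 gene without KO-1-hetero tumor replicate 3, KO-8-hetero tumor replicate 2, either KO-8-hetero normal library, either WT-young normal library or either WT-old normal library. Without the 3 libraries that stood apart Actn1 and Vcl passed there.

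Whether the tumor-normal difference of each KO group differed from that of WT-young was tested directly, in interactions added after the values were seen. For KO-1-hetero the median over the 35 genes was 2.11 (-0.01 over all genes), 34 of 35 were above 0 (6810 of all 13799), and 26 had an unadjusted p below 0.05 (2016 of all 13799), but 0 of 35 and 0.0145% of all genes passed after adjustment. The smallest adjusted p-values were those of Lmod1 (2.68, SE 0.646, limma adjusted p 0.0812) and Jph2 (2.19, SE 0.558, 0.0946). Without the 3 libraries that stood apart Myh11 alone passed, and Lmod1 had an adjusted p of 0.0541. For KO-8-hetero the median was 0.88, with 0 of 35 genes and 0.0942% of all genes called. Its median was 0.19 without the 3 libraries that stood apart, which left only replicate 1 of its normal libraries. For KO-8-homo it was 0.60, with 0 of 35 genes and 0% of all genes called, and 0 members at an unadjusted p below 0.05. These interactions share the WT-young libraries, so their medians are not independent of each other.

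The comparison named by the series, KO against WT in tumors, called 0 of the 35 genes (0.00725% of all genes) by limma, with 1 member and 1147 genes at an unadjusted p below 0.05. In normal tissue it also called 0 (0% of all genes), with 0 members at an unadjusted p below 0.05. The median log2 fold change in tumors was 0.39, against -0.01 over all genes. The largest values were those of Des, 1.30 (SE 0.753, limma adjusted p 0.663), and Cnn1, 1.11 (SE 0.652, 0.67). Both depended on the WT-old tumor, without which Des measured 2.27 (SE 0.618, adjusted p 0.206), Cnn1 1.94 (SE 0.536, 0.206) and Myh11 1.78 in place of 0.95, and the median was 0.65. Still 0 members passed then.

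Set against the 4 WT-young tumors alone, the KO tumors were higher on average for nearly all of the genes. KO-1-hetero was higher for 32 of the 35, KO-8-hetero for 34 and KO-8-homo for 34, and 31 were higher in all 3, with the same WT-young libraries in each. Of all 13799 genes 6475, 6571 and 6998 were higher in these comparisons, in that order. The medians over the 35 genes were 1.00, 0.70 and 0.64 on the log2 scale, and that of KO-8-hetero was 0.32 without the 3 libraries that stood apart. In KO-1-hetero 3 genes rose by limma, where 2.88% of all genes passed in either direction, and 20 of the 35 members and 2632 of the 13799 genes had an unadjusted p below 0.05. The 3 genes called were Des (2.94, SE 0.774, adjusted p 0.0494), Cnn1 (2.58, SE 0.672, 0.0474) and Lmod1 (1.80, SE 0.392, 0.027). Lmod1 levels in FPKM were 7.27, 4.86 and 6.08 in KO-1-hetero tumors and 1.28, 1.4, 0.876 and 0.587 in WT-young tumors. The groups did not overlap for any of the 3 genes.

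The 3 calls stood close to the threshold. Over 12 alternative fits Lmod1 passed in 10, Cnn1 in 7 and Des in 6, with highest adjusted p-values of 0.0907, 0.162 and 0.164. Of the 24 fits that each left out 1 library Lmod1 passed in 19, Cnn1 in 8 and Des in 6. The count was 0 without KO-1-hetero tumor replicate 1 or 3 or without WT-young tumor replicate 1, 3 or 4, and 1 without KO-1-hetero tumor replicate 2, either KO-1-hetero normal library, any KO-8-homo library or WT-young tumor replicate 2. It rose to 6 without either WT-young normal library, to 7 without KO-8-hetero tumor replicate 1 and to 8 without KO-8-hetero tumor replicate 2. These libraries are not compared there and enter through the shared estimate of the spread and the choice of genes tested. It was 17 when only the 7 libraries compared were fitted, and 0 when libraries with Xist were left out, which left 2 KO-1-hetero tumors. Without the 3 libraries that stood apart it was 10, with Kcnma1, Myh11, Myl9, Pdlim3, Pgm5, Tagln and Tpm2 added to the 3.

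In KO-8-hetero 0 of the 35 genes passed against WT-young tumors (0.00725% of all genes), with 6 at an unadjusted p below 0.05, and 1 passed without KO-8-hetero tumor replicate 1. In KO-8-homo 0 passed (0.457% of all genes), with 8 at an unadjusted p below 0.05. KO-8-homo against KO-8-hetero tumors called 0 (0.0507%), with 0 at an unadjusted p below 0.05, and KO-1-hetero against KO-8-hetero tumors called 0 (0%), with 2 at an unadjusted p below 0.05.

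Single libraries show how uneven the KO tumors were. Against the highest of the 4 WT-young tumors, KO-1-hetero replicates 1, 2 and 3 were higher for 28, 22 and 28 of the 35 genes, where 26.6%, 23% and 28.5% of all genes were higher. KO-8-homo replicates 1, 2 and 3 were higher for 22, 26 and 28, against 27.7%, 27% and 20.5%. KO-8-hetero replicates 1, 2 and 3 were higher for 5, 33 and 21, against 27.2%, 26.8% and 26.4%, and the WT-old tumor for 30, against 33.2%. KO-8-hetero tumor replicate 1 thus stood with the WT-young tumors in these genes, while replicate 2 of the same group, which carried striated muscle transcripts, stood highest of the KO tumors. For 2 of the 35 genes, Smtn and Myh11, all 9 KO tumors exceeded all 4 WT-young tumors, and 0 lay below them without overlap, against 1.03% and 1.3% of all genes. For 7 genes (Actg2, Cnn1, Tagln, Myl9, Ppp1r14a, Des and Pdlim3) all 9 KO tumors lay below all 6 KO normal libraries, and for 0 above, against 7.05% and 8.48%. For 21 genes the 4 WT-young tumors lay below all 10 normal libraries, and for 0 above, against 9.44% and 12.9%.

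Ratios between a smooth muscle gene and a relative that is made in other cells depend little on how a library is scaled. Myh9 encodes a non-muscle myosin heavy chain, Actb the cytoplasmic beta actin, Cnn3 the calponin of non-muscle cells and Tpm4 a largely non-muscle tropomyosin. With the KO label the log2 ratio of Cnn1 to Cnn3 was -1.13 ± 1.44 (SD, n = 9) in tumors and 2.84 ± 0.90 (SD, n = 6) in normal tissue, a difference of -3.96 (exact permutation test, two-sided, p 0.0002, the smallest that 5005 splits can give, adjusted p 0.000999 over 15 tests). The difference was -2.83 for Tpm2 to Tpm4 and -2.78 for Actg2 to Actb, each with the same exact p of 0.0002, and -2.23 for Myh11 to Myh9 (exact p 0.0024, adjusted p 0.00779). With the WT label, 5 tumors against 4 normal libraries, the differences were -4.56, -3.24, -3.08 and -3.00 in the order Cnn1, Tpm2, Actg2 and Myh11. Their adjusted p-values were 0.0529, 0.0529, 0.0529 and 0.0833 by exact permutation test, so none passed, and the smallest unadjusted p that 126 splits can give is 0.00794. The WT-old tumor was the 1 WT tumor within the range of normal tissue for each of these 4 ratios. Without it all 4 passed, at -5.59, -4.01, -3.77 and -3.82 (exact permutation adjusted p 0.0306 each). The remaining tumors then lay wholly below the normal libraries, so each p was the smallest that 4 against 4 libraries can give. Without all WT-old libraries 4 tumors and 2 normal libraries remained, which give too few splits for any p below 0.05. None could pass then, whatever the values. The differences were -6.02, -4.62, -4.36 and -4.52 (exact permutation adjusted p 0.0714 each). Without WT-old normal replicate 2 the ratio of Tpm2 to Tpm4 passed (-3.68, exact adjusted p 0.0446).

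None of these 4 relatives fell. Cnn3 rose by 1.01 and 1.00 on the log2 scale with the WT and KO labels (limma adjusted p 0.0117 and 0.0012), and Tpm4 rose by 0.64 and 0.63 (0.047 and 0.0091). Actb and Myh9 rose by 0.46 each with the KO label (0.017 and 0.033) and measured 0.25 and 0.17 with the WT label. The ratio of Acta2 to Actg2 moved the other way, by 0.80 with the KO label (exact permutation test, two-sided, p 0.0026, adjusted p 0.00779) and by 1.12 with the WT label (exact p 0.0317, adjusted p 0.0529), so that the vascular-type actin exceeded the visceral-type actin in tumors (log2 ratio 0.70 ± 0.43, SD, n = 9, with the KO label) and not in normal tissue (-0.09 ± 0.33, SD, n = 6). Between KO and WT tumors 0 of the 5 ratios differed (exact adjusted p 0.294 to 0.754), but without the WT-old libraries 4 did, at 2.32 for Cnn1 to Cnn3, 1.57 for Myh11 to Myh9, 1.39 for Actg2 to Actb and 1.38 for Tpm2 to Tpm4 (exact permutation adjusted p 0.0262, 0.0175, 0.024 and 0.0326).

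**Figure D4:**
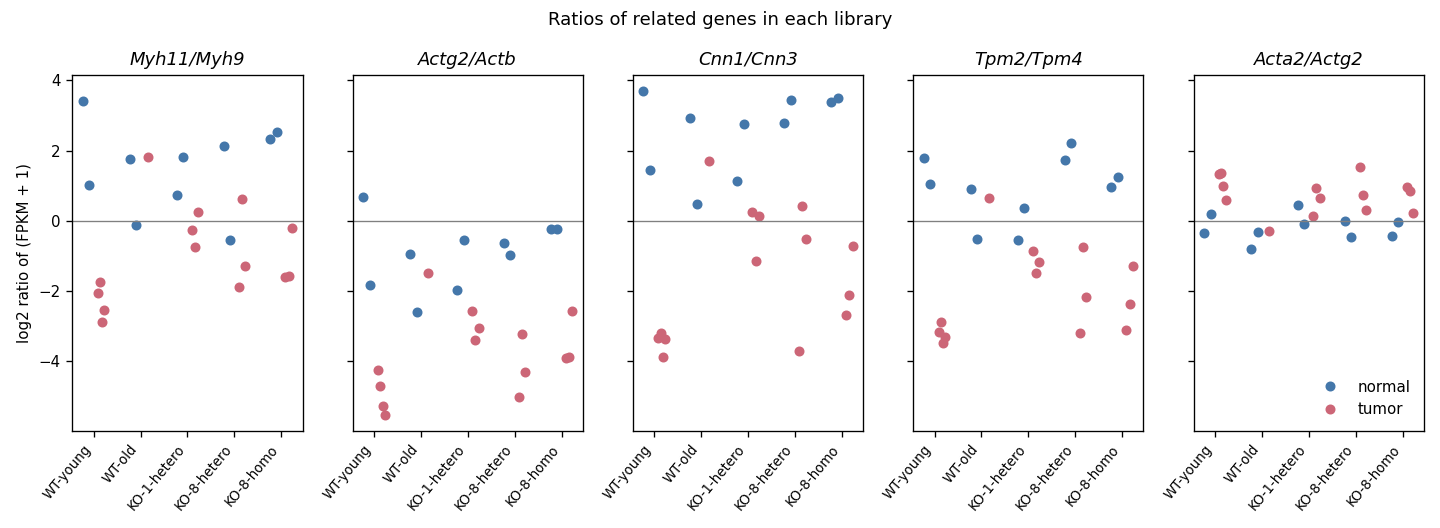
Log2 ratio of (FPKM + 1) of 5 pairs of related genes in each library (points), normal in blue and tumor in red, by title group. In the first 4 panels the WT-young tumors lie lowest as a group and the WT-old tumor lies among normal libraries, and in the Acta2/Actg2 panel most tumors lie above 0.

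Other genes of the smooth muscle programme and their relatives were read from further lists. Over all 13799 genes tested, 14.8% fell and 15.5% rose with the WT label, and 23.2% and 24.1% with the KO label. Counts near these shares say nothing particular of a list. Of 15 tested genes of calcium handling and signalling, 8 fell for the WT label and 6 for the KO label, and 0 rose. Casq2, a calcium-binding protein of the store, fell by 1.82 (limma adjusted p 0.00338) and 2.29 (1.87e-05), and Pln, phospholamban, which inhibits the calcium pump, fell with both labels (0.0081 and 0.00142), by 1.92 with the KO label. Of 23 genes of the dystrophin complex and adhesion, 6 and 8 fell and 0 rose, led by the integrin Itga7 (-1.37 and -1.10) and the tensin Tns1 (-1.70 and -1.57). The RhoA and myosin phosphatase genes, which act in most cells, divided, with 0 of 10 called by limma with the WT label (3 at an unadjusted p below 0.05), and 3 higher and 2 lower with the KO label. Among the latter were Rock2 (0.59) and Arhgef12 (0.63), higher, and the phosphatase genes Ppp1cb (-0.73) and Ppp1r12c (-0.84), lower. Of 12 non-muscle relatives 4 and 8 rose and 1 fell with each label, such as Myl12a (0.71 and 0.69) and Tpm3 (0.49 and 0.66), higher, and Myl6 (-0.88 and -1.15), lower. Of 16 SRF cofactors and other SRF targets, 3 and 8 rose and 0 and 2 fell, led by the ternary complex factor Elk3 (1.40 and 1.63) and, with the KO label, the immediate early gene Egr1 (1.19), while Fhl1 (-1.18) and Gata6 (-0.38) fell with that label. The median over these 16 genes was 0.36 and 0.37, against -1.54 and -1.52 over the 35.

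Markers of other cell types were read beside the fall in smooth muscle genes. Of all genes tested, 14.8% fell and 15.5% rose with the WT label, and 23.2% and 24.1% with the KO label. Of 7 tested enteric neuron and glia genes 5 fell with the WT label, and 4 fell and 1 rose with the KO label. The neuronal intermediate filament Prph fell by 1.97 and 1.57 (limma adjusted p 9.72e-05 and 2.15e-05) and the glial gene S100b by 1.17 and 0.97, while Ret rose by 0.98 with the KO label. S100b reached 1 FPKM in 9 libraries, all normal, and passed the expression filter only through them. Prph reached it in 12, and the only tumors were KO-1-hetero replicate 1 at 1.72 and KO-8-hetero replicate 2 at 1.31 FPKM. Prph thus passed the filter through normal tissue, where it is high. Ret also reached 1 FPKM in 12 libraries, all tumors, and passed only through them. Sox10, a defining glial gene, was at 0 to 0.404 FPKM in tumors and 0.33 to 1.45 in normal tissue, and neuronal Elavl4 was at 0.0136 to 0.366 and 0.177 to 0.793 FPKM. The summed level of the 10 listed genes was 5.59 to 27.3 FPKM in tumors and 10.4 to 38.1 in normal tissue. Of 3 genes of the interstitial cells of Cajal, the pacemakers between the muscle layers, 2 fell with each label, Kit (-1.68 and -0.92) and Etv1 (-0.85 and -0.52), whereas Ano1 did not pass (0.60 and 0.16). Etv1 reached 1 FPKM in 12 libraries, and the only tumors were KO-1-hetero replicates 1 and 3 and KO-8-hetero replicate 2, at 1.56, 1.15 and 1.62 FPKM. It too passed the expression filter through normal tissue. The summed level of the 3 genes was 30.4 to 67.3 FPKM in tumors and 40.1 to 81.3 in normal tissue. The part of muscle layer content in the result was not tested.

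Of 12 fibroblast genes 2 rose with the WT label, and 6 rose and 2 fell with the KO label. The shares over all genes tested were 14.8% lower and 15.5% higher with the WT label, and 23.2% and 24.1% with the KO label. Counts near these shares, here and for the cell types below, are not results about a cell type. Vim, vimentin of mesenchymal cells, rose by 1.66 and 1.61 and the collagen Col3a1 by 1.43 and 1.38, while Postn and Lum fell by 0.77 and 1.13 with the KO label. The fibroblast genes summed to 648 to 1807 FPKM in tumors and 387 to 1104 in normal tissue. Pericyte genes gave 0 calls of 5 by limma with either label (1 at an unadjusted p below 0.05 with each), summing to 10.7 to 68 FPKM in tumors and 16.8 to 145 in normal tissue, and Rgs5 measured -0.94 and -0.26. Endothelial genes gave 0 calls of 5 by limma with the WT label (0 at an unadjusted p below 0.05) and 2 higher with the KO label (Vwf 0.68 and Cdh5 0.62), with sums of 15.9 to 67 and 15.1 to 52.9 FPKM, and Pecam1 measured 0.19 and 0.43. Of 8 epithelial genes 1 fell for the WT label and 3 for the KO label, among them Krt19 (-0.69) and Krt8 (-0.68), with sums of 4217 to 10813 and 6039 to 14229 FPKM, and Epcam measured -0.22 and -0.23. Of 4 mesothelial genes only Msln was tested. It rose by 3.34 and 1.95, while the defining gene Upk3b was at 0 to 0.075 FPKM in tumors and 0 to 0.585 in normal tissue. Msln reached 1 FPKM in 14 libraries, of normal ones only in KO-1-hetero replicate 1 at 1.1 FPKM, so it passed the expression filter through tumors. Of 11 striated muscle genes 3 were tested and Ckm fell with the KO label (-2.04, limma adjusted p 0.0362). That fit includes KO-8-hetero tumor replicate 2, with Ckm at 99.4 FPKM, and no value without that library is given. Their sum was 3.87 to 15.9 FPKM in 13 tumors, 770 in the remaining one and 6.36 to 37.1 FPKM in normal tissue.

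The 2 KO-8-hetero normal libraries disagreed gene by gene, and their difference ranked with base composition. Replicate 2 was lower than replicate 1 for 24 of the 35 genes and higher for 11. Vcl (transcript GC content 48.6%) was at 33.3 and 11.6 FPKM in replicates 1 and 2, and Cald1 (45.0%) at 57.2 and 20.8 FPKM. Des (56.5%) was at 422 and 589, Ppp1r14a (61.7%) at 66 and 99.5, and Srf (64.4%) at 13.8 and 23.7 FPKM. Myh11 (53.1%) was at 381 and 62.2 FPKM, the largest difference, -2.59 on the log2 scale. The other genes of 53.0% to 53.6% GC differed less, by -0.12 (Actn1), -0.07 (Lmod1), 0.46 (Cnn2) and -0.99 (Mylk). Across the 35 genes, which are not independent replicates, the log2 difference of the 2 libraries rose with GC content (Spearman's rho 0.77) and fell with transcript length (rho -0.46). In the other 4 normal pairs rho with GC content was between -0.06 and 0.20, and rho with transcript length was between -0.52 (KO-8-homo) and 0.41 (WT-young). Over 8998 genes the deviation of this library from the mean of its tissue had rho 0.54 with GC content, and the other 23 libraries lay between -0.49 and 0.30, with both KO-1-hetero normal libraries at the low end (-0.49 and -0.41). With transcript length the deviation of KO-8-hetero normal replicate 2 had rho -0.41, and the other 23 libraries lay between -0.25 and 0.37. The part of GC content or transcript length in the tumor-normal results was not tested. Calls turned on this library, that of Srf with the KO label among them, as given above. Without it the KO-8-hetero tumor-normal comparison had only replicate 1 as normal tissue, so effect sizes alone are given for that fit. Myh11 then measured -2.88 in place of -1.59 (SE 0.785, limma adjusted p 0.11). Vcl, which had risen by 0.72 (SE 0.268, limma adjusted p 0.039), then measured -0.00. Without KO-8-hetero tumor replicate 2 Vcl measured 0.54 (adjusted p 0.136) and Myh11 -2.30 (0.0268).

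**Figure D5:**
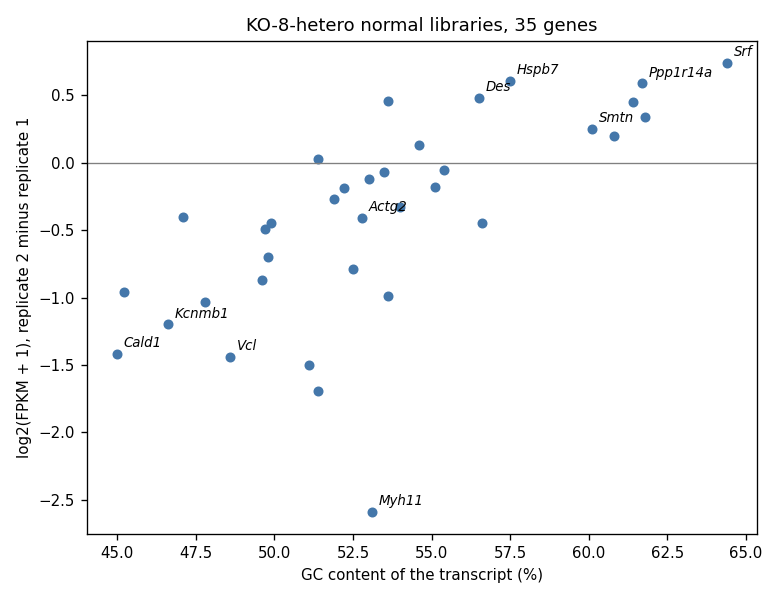
Difference in log2(FPKM + 1) between KO-8-hetero normal replicates 2 and 1 for each of 35 genes (points) against the GC content of the longest spliced transcript, in percent. Genes of low GC content such as Cald1 and Vcl lie below 0 and genes of high GC content such as Srf and Ppp1r14a above it, with Myh11 lowest at -2.59.

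Some levels may include fragments of neighbouring genes. In the GENCODE annotation of the same build an exon of Vcl overlapped Ap3m1 by 2090 bases and Tagln overlapped Pcsk7 by 94 bases on the opposite strand, Des overlapped Gm15179 by 220 and Kcnma1 4930519K11Rik by 1016 bases, also opposite, and Pcp4 overlapped Igsf5 by 191 bases on the same strand. The library kit keeps strand per the labels, and whether the authors' quantification used it is not given in the sources used here.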

How the data were processed

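RNA-seq of 24 mouse colorectal libraries was used. The authors deposited 1 table of FPKM values per library, with gene symbols, per the file headers. The submitters' processing notes name TopHat2 2.1.1, Bowtie2 2.2.8, SAMtools 0.1.18 and Cuffdiff 2.2.1 and the build mm10, and the library kit is stranded per the labels. A gene was tested where 4 or more libraries reached 1 FPKM (13799 of 24346 genes), and log2(FPKM + 1) was fitted with limma 3.58.1 (R 4.3.3; lmFit, contrasts.fit, eBayes with trend), with no scaling, by 4 combinations of label and tissue or by 10 title groups, over all 24 libraries. Fold changes are on that scale, which understates changes of low genes. Adjusted p-values (Benjamini-Hochberg, threshold 0.05) run over all genes tested. The fits were tested on simulated data. Ratios were compared by exact permutation tests over libraries, adjusted over 15 tests (Python 3.11.15, numpy 2.4.6, scipy 1.17.1, pandas 2.3.3, matplotlib 3.10.9). Members, roles, marker lists and tests were chosen with earlier results of these data known. Values in every library are given for Acta2, Actg2, Myh11, Cnn1, Des, Tagln, Mylk, Myocd and Srf and for the members that changed most (Des) and least (Cald1) with the KO label. From the other lists the 2 genes with the smallest p in each direction with the KO label and the defining markers are named. Other genes and single values were named after their values were seen. Alternatives were a pseudocount of 0.1, no filter, a stricter filter, median scaling, quantile normalization, no trend, a robust fit, other sets of libraries, a fold threshold, replicate blocks and leaving out each library. Leaving out the 3 libraries that stood apart, and the differences between each KO group and WT-young in the tumor-normal comparison, were chosen after seeing the data. Promoter windows came from RefSeq, and transcript GC content and exon overlaps from GENCODE, both on GRCm38.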

Additional observations from a re-analysis of the deposited data

Results flagged for a closer look

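Within the 4 combinations of label and tissue and the WT-young tumors, of 4 to 9 libraries each, values far from the others were found in 30 of 175 groups checked with Dixon's test at the 95% level, where chance gives about 1 in 20. The groups join title groups, and the genes of one library are not independent.

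The WT-old tumor was the high value among 5 WT tumors for 18 genes. Its FPKM was 672 for Actg2, 232 for Cnn1, 859 for Tagln, 46.4 for Smtn, 10.4 for Lmod1, 506 for Tpm1 and 243 for Tpm2. It was 284 for Myh11, 49.3 for Mylk, 4.95 for Ppp1r12b, 250 for Des, 27.3 for Synm, 15 for Synpo2 and 27 for Pgm5, and 3.9 for Kcnma1, 6 for Pcp4, 13.7 for Hspb6 and 8.61 for Hspb7. It was the 1 tumor of its title group.

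KO-1-hetero normal replicate 1 was the low value among 6 KO normal libraries for 7 genes, with 223 FPKM for Actg2, 144 for Cnn1, 4.64 for Lmod1, 121 for Des, 40.6 for Flna, 8.52 for Pdlim7 and 20.3 for Dmpk. KO-8-hetero tumor replicate 2, which carried striated muscle transcripts, was the high value among 9 KO tumors for Ldb3 at 15.8, Pcp4 at 9.89 and Hspb6 at 25.7 FPKM. KO-8-hetero tumor replicate 1 was the low value among KO tumors for Des, at 3.74 FPKM. WT-young tumor replicate 4 was the low value among WT tumors for Dmpk, at 19.7 FPKM.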

How the results depend on the processing

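Counts of genes called were within 1.5 times the reported count in 195 of 215 alternatives and 375 of 408 fits that left out 1 library. For KO-1-hetero against WT-young tumors (3 reported) the count was 5 with a pseudocount of 0.1 or quantile normalization, 1 with no filter, the stricter filter or the robust fit, 0 in libraries with low Xist or with the replicate block, 17 with only the libraries compared and 10 without the 3 libraries that stood apart. For KO-1-hetero tumor against normal (0 reported) it was 1 with a pseudocount of 0.1, the stricter filter, quantile normalization, the replicate block or no WT-old libraries, 5 with only the libraries compared and 2 without the 3 libraries. For KO-8-hetero tumor against normal (23) it was 3 with only the libraries compared, and for the tumor-normal difference of KO-1-hetero minus WT-young (0) it was 1 without the 3 libraries. The cause of these changes was not tested, except that fits of only the libraries compared have fewer libraries. Between KO and WT tumors the ratios Myh11/Myh9, Actg2/Actb, Cnn1/Cnn3 and Tpm2/Tpm4 passed without the WT-old libraries (1.57, 1.39, 2.32 and 1.38).

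Leaving out 1 library gave counts of 14 to 26 for tumor against normal with the WT label, 0 to 8 for KO-1-hetero and 0 to 1 for KO-8-hetero against WT-young tumors, 0 to 2 for KO-1-hetero and 6 to 26 for KO-8-homo tumor against normal, and 0 to 2 for the difference of KO-8-hetero minus WT-young. Each title group had 2 normal libraries, so leaving out 1 of them left only the other there. The median for KO-1-hetero tumor against normal ran from -1.04 to 0.0101, and Mylk between KO and WT tumors from -0.00404 to 0.61. For tumor against normal with the WT label the ratios ran from -3.82 to -2.37 (Myh11/Myh9), -3.77 to -2.46 (Actg2/Actb), -5.59 to -4.04 (Cnn1/Cnn3), -4.01 to -2.91 (Tpm2/Tpm4) and 0.96 to 1.39 (Acta2/Actg2). Between KO and WT tumors they ran from 0.39 to 1.57, 0.39 to 1.39, 0.93 to 2.32, 0.35 to 1.38 and -0.36 to 0.0449 in that order, and Acta2/Actg2 turned positive without WT-young tumor replicate 1 (0.0394) or 2 (0.0449).

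Whether replicate numbers pair tumor and normal libraries is not known, as the labels do not say. Same-numbered libraries of a title prefix had deviations correlated at -0.16 to 0.35. Each title group has too few normal libraries for these correlations to show or exclude pairing. With the replicate block the counts were 16 (WT label), 25 (KO label), 22 (KO-8-hetero), 26 (KO-8-homo) and 26 (WT-young). With a block for title prefix by replicate they were 3 (WT label), 24 (KO label), 15 (KO-8-hetero), 19 (KO-8-homo) and 22 (WT-young). With that block Acta2, Actg2, Myh11, Des, Tagln and Mylk lost their calls with the WT label, and Myh11 (adjusted p 0.0768) and Srf (0.11) with the KO label. With the plain replicate block Acta2 lost its call with the WT label (0.09) and Srf with the KO label (0.0625). Fragment totals are unknown, so counting error could not be given.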
